A study of Mus musculus with 35 samples.

Results

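The lysosomal cathepsins Ctsa, Ctsb, Ctsc, Ctsd, Ctse, Ctsh, Ctsk, Ctsl, Ctss and Ctsz were followed in sorted myeloid cells and whole tumors of mice with pancreatic cancer. The 10 genes were taken by symbol from the 53379 rows of the count table, and all 10 were matched by their Ensembl identifiers. Cathepsins are proteases that are made as inactive precursors, carried to endosomes and lysosomes by the mannose 6-phosphate route and switched on by acid pH. Ctsb, Ctsl, Ctss, Ctsh, Ctsk, Ctsc and Ctsz are cysteine proteases, Ctsd and Ctse are aspartic proteases, and Ctsa is a serine carboxypeptidase that also stabilizes the neuraminidase Neu1. In myeloid cells they degrade engulfed protein, and Ctss in particular trims the invariant chain from MHC class II so that peptides can be loaded.

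The animals were female C57BL/6 mice carrying orthotopic T110299 tumors, grown in the pancreas from 1 mouse pancreatic tumor cell line. Treated mice received 50 µg poly(I:C), a double-stranded RNA mimic, complexed with the carrier polyethylenimine (poly(I:C)-PEI) intravenously on days 18 and 20. The other mice were left untreated. CD11b+ cells from spleen and tumor were sorted into polymorphonuclear (PMN) myeloid-derived suppressor cells (MDSC), gated Ly6C lo Ly6G+, and monocytic (M) MDSC, gated Ly6C hi Ly6G-. These gave PMN-MDSC of untreated spleen (4 libraries), treated spleen (3), untreated tumor (4) and treated tumor (4), M-MDSC of untreated spleen (4), treated spleen (4), untreated tumor (4) and treated tumor (4), and whole (bulk) tumor from untreated mice only (4). All mice bore tumors of the same line, so there is no tumor-free reference, and bulk tumor of treated mice was not analysed here. Libraries are called below by the running number in the column headings of the count table.

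The treated tumor M-MDSC library S12 held 10 counts and was left out, which left 34 libraries and 3 in that group. The 30 MDSC libraries held 793070 to 4357105 counts and the 4 bulk libraries 3771590 to 8886115. Levels are given as CPM, a count per 1e+06 counts, after TMM scaling. The gates were checked against marker lists. Summed neutrophil markers reached 24634 to 48823 CPM in untreated and 50249 to 98647 CPM in treated spleen PMN-MDSC, and 1034 to 4524 and 3715 to 11711 CPM in tumor PMN-MDSC. Ly6g itself, which encodes the antigen of the gate, lay at 37.5 to 100.6 CPM in untreated spleen PMN-MDSC and at 0 to 8.98 CPM in untreated tumor PMN-MDSC. Macrophage markers were at 3403 to 4176 CPM in untreated tumor PMN-MDSC, above the 1681 to 2278 CPM of untreated tumor M-MDSC and the 1240.2 to 2152 CPM of untreated spleen PMN-MDSC. Neutrophil sums of tumor PMN-MDSC lay above those of tumor M-MDSC without overlap, which were 250.2 to 744 CPM in untreated and 185 to 992 CPM in treated libraries. The treated spleen M-MDSC library S30 had a B cell marker sum of 11775 CPM against 116 to 364 CPM in the other 3 of its group.

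**Figure D1:**
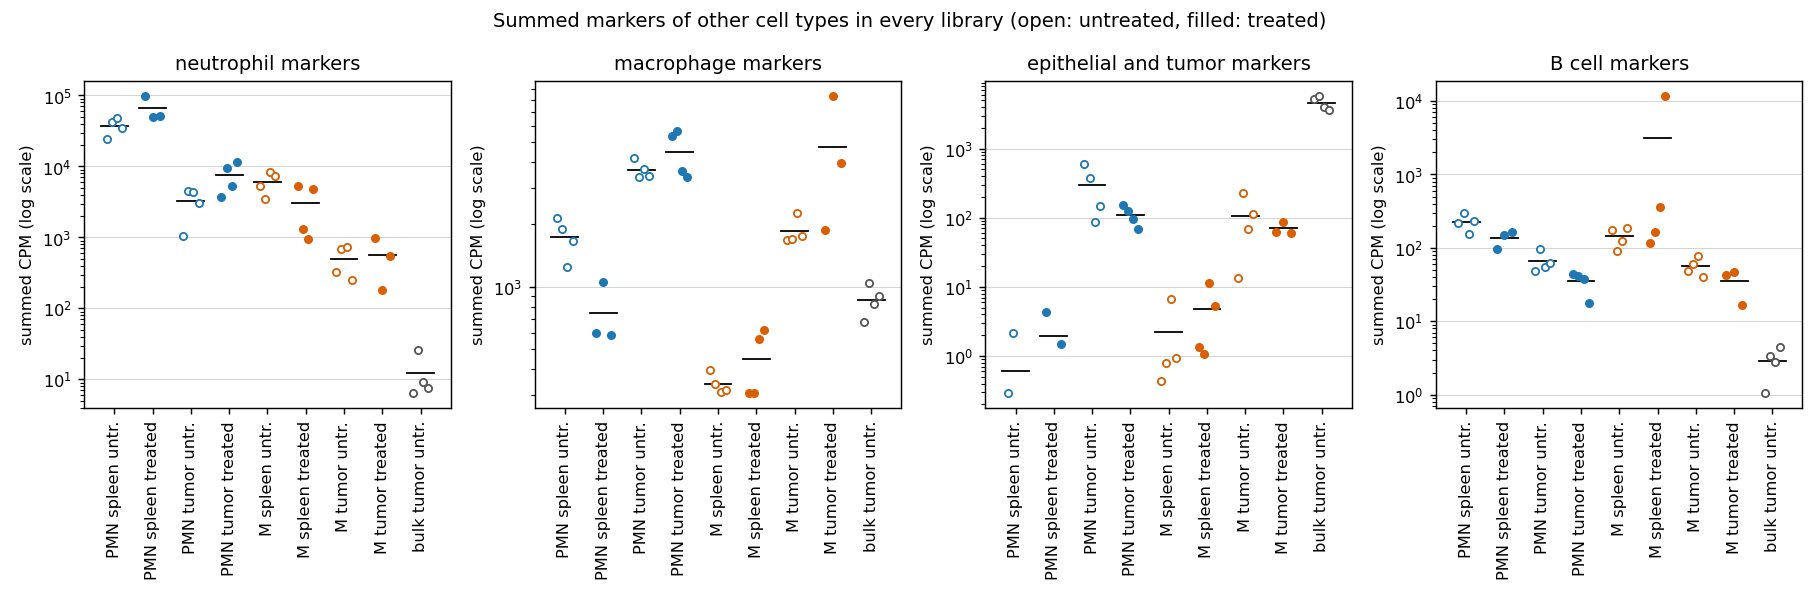
Summed CPM of the marker lists for neutrophils, macrophages, epithelial tumor cells and B cells in each library, by group, on log axes, with group means as lines, open points for untreated and filled points for treated groups; libraries at 0 cannot be drawn on a log axis. Neutrophil sums of tumor PMN-MDSC lie under those of spleen PMN-MDSC, and library S30 stands apart with 11775 CPM of B cell markers.

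Per kilobase of exon (FPKM), Ctss had the highest mean of the 10 genes in every group. The ranking depends on the length used, the union of exons, which is 1358 bases for Ctss and 6051 for Ctsb. By mean CPM, Ctsb exceeded Ctss only in untreated spleen PMN-MDSC (518 against 366 CPM) and bulk tumor (202 against 160 CPM). Ctsd exceeded Ctss by mean CPM only in untreated (446 against 366 CPM) and treated spleen PMN-MDSC (918 against 591 CPM). Ctss reached 1111 ± 66.1 FPKM (SD, n = 4) in untreated spleen M-MDSC, 1689 ± 136 FPKM (SD, n = 4) in untreated tumor M-MDSC and 1379 ± 138 FPKM (SD, n = 4) in untreated tumor PMN-MDSC. Its share of the summed FPKM of all 10 genes was 66.6% ± 1.25 (SD, n = 4) in untreated spleen M-MDSC and 57.0% ± 0.852 (SD, n = 4) in untreated tumor PMN-MDSC. It was lower in untreated spleen PMN-MDSC with 35.2% ± 6.31 (SD, n = 4), treated spleen PMN-MDSC with 38.3% ± 6.21 (SD, n = 3) and bulk tumor with 36.6% ± 5.38 (SD, n = 4). Spleen PMN-MDSC were the fraction in which Ctsd, the main aspartic protease of the lysosome, came close to Ctss. Ctsd held 25.2% ± 7.66 (SD, n = 4) of the cathepsin FPKM in untreated and 35.9% ± 0.210 (SD, n = 3) in treated spleen PMN-MDSC, against 1.81% ± 0.318 (SD, n = 4) in untreated spleen M-MDSC. In bulk tumor Ctse held 16.8% ± 2.26 (SD, n = 4), a share that stayed under 2.36% in every MDSC library. All 10 genes together took 0.163% ± 0.0439 (SD, n = 4) of all counts in untreated spleen PMN-MDSC, 0.445% ± 0.0256 (SD, n = 4) in untreated spleen M-MDSC, 1.06% ± 0.251 (SD, n = 3) in treated tumor M-MDSC and 0.100% ± 0.0136 (SD, n = 4) in bulk tumor.

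**Figure D2:**
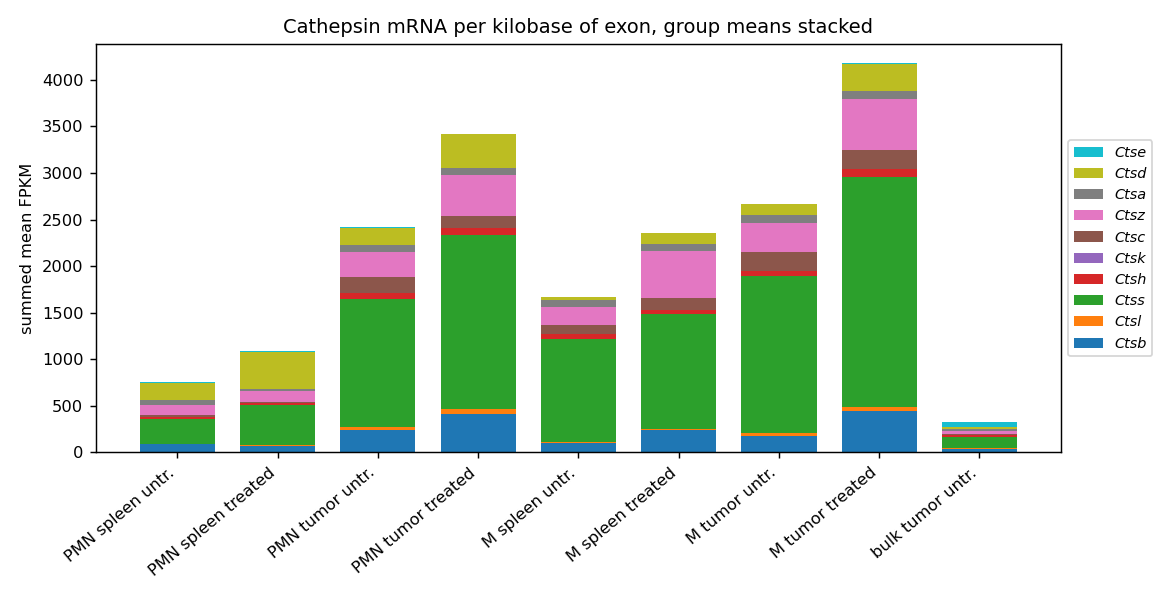
Group means of the FPKM of each cathepsin, stacked (y axis: summed FPKM, x axis: the 9 groups). Ctss makes the largest layer in each of the 9 groups. Ctsd is the next largest in spleen PMN-MDSC, and bulk tumor is low in sum with Ctse as its next largest layer.

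Untreated spleen PMN-MDSC and treated spleen PMN-MDSC were low for most of the cysteine cathepsins, and the tumor fractions were high. Ctsb, a cysteine endopeptidase and carboxypeptidase, ranged from 306 to 607 CPM in treated spleen PMN-MDSC to 1945 to 3296 CPM in treated tumor M-MDSC. Ctsl, a cysteine endopeptidase, ranged from 11.7 to 24.4 CPM in untreated spleen PMN-MDSC to 224 to 438 CPM in treated tumor PMN-MDSC, and the 4 tumor MDSC groups did not overlap with bulk tumor or any spleen group. Ctsc, the dipeptidyl peptidase that activates granule serine proteases, was lowest in treated spleen PMN-MDSC at 43.2 to 63.1 CPM and highest by mean in untreated tumor M-MDSC at 1069 to 1337 CPM. Ctsa varied least among the MDSC groups outside spleen PMN-MDSC, with group means between 350.1 and 419.8 CPM whose neighbours in order overlapped throughout. In the order of group means, neighbouring groups overlapped in most steps for every gene, and bulk tumor was last and apart from the next group for Ctsa, Ctsb, Ctss and Ctsz.

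**Figure D3:**
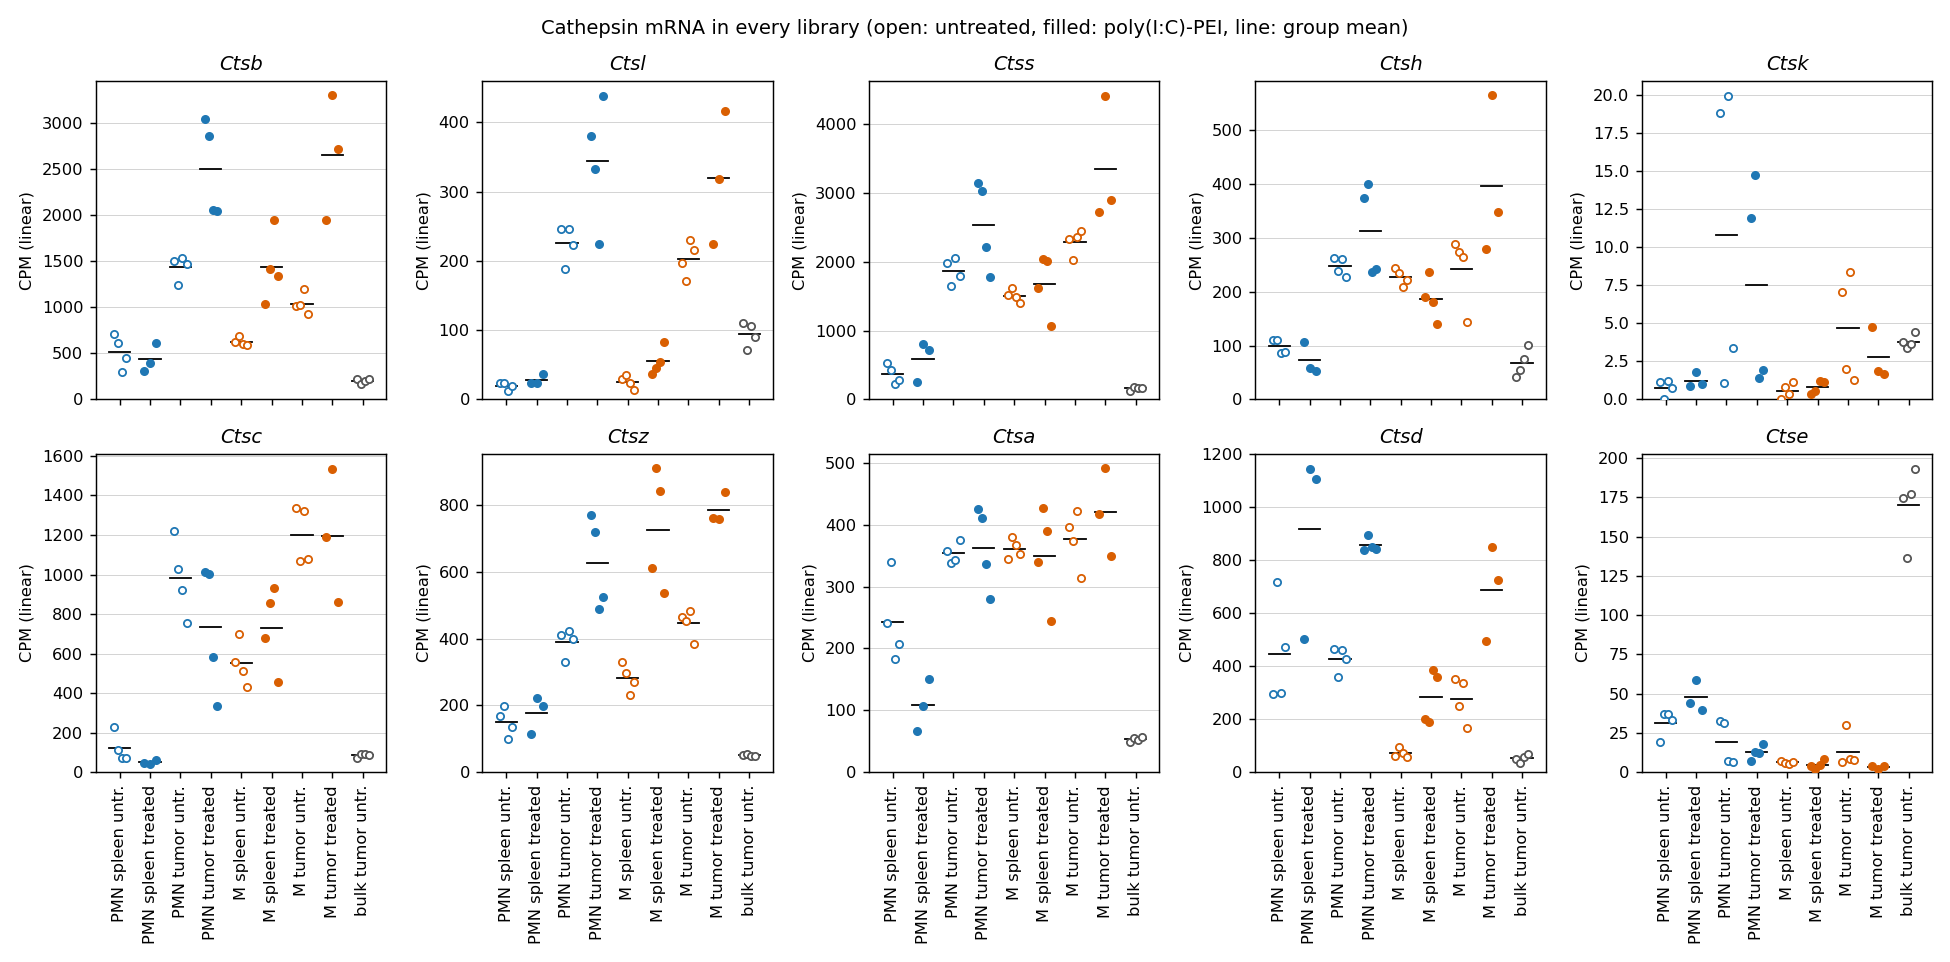
CPM of each cathepsin in every library (linear axes from 0, 1 panel per gene), by group, with open points for untreated, filled points for treated and a line at the group mean. The tumor fractions lie above the spleen fractions for Ctsl, Ctse is high in bulk tumor only, and Ctsk splits into high and low libraries within the tumor groups.

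Ctsk, the collagen-degrading cathepsin known from osteoclasts, was nearly absent in spleen, where no library exceeded 1.78 CPM. In sorted tumor cells it differed more between libraries of a group than between group means. The values were 1.11, 3.35, 18.8 and 19.9 CPM in untreated PMN-MDSC, 1.38, 1.95, 11.9 and 14.7 CPM in treated PMN-MDSC, 1.28, 1.97, 7.07 and 8.38 CPM in untreated M-MDSC and 1.7, 1.88 and 4.75 CPM in treated M-MDSC. A pair of libraries was high and a pair low in each 4-library tumor group. It passed the filter on low counts, a mean of 25 counts over the libraries compared, only in the comparison of bulk tumor with PMN-MDSC, and Ctse did not pass it in the M-MDSC treatment and compartment comparisons, nor in M-MDSC against PMN-MDSC of treated tumor.

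The treatment comparison asked how poly(I:C)-PEI changed each MDSC fraction. In M-MDSC of the spleen, 4 of the 8 cathepsins tested rose, Ctsb, Ctsd, Ctsl and Ctsz, and none fell, where 9.96% of the 8827 genes tested were called higher. Over the 8 the median log2 fold change was 0.73, against -0.03 over all genes tested. Calls here and below are those with a Benjamini-Hochberg adjusted p under 0.05 in edgeR's quasi-likelihood test.

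Ctsd lay at 56.9, 62.1, 72.8 and 94.3 CPM in untreated and 188, 202, 360.0 and 385 CPM in treated spleen M-MDSC. Every treated library was above every untreated one, and the level was 3.86-fold higher (log2 fold change 1.95 ± 0.27 (SE), adjusted p = 0.00136). Ctsz, a carboxypeptidase, rose from 232, 271, 296 and 331 CPM to 538, 610.1, 843 and 910.4 CPM. The groups were again apart, with a 2.49-fold higher treated level (log2 fold change 1.31 ± 0.19 (SE), adjusted p = 0.00136). Ctsb gave 588, 599.8, 628 and 687 CPM in the untreated and 1034, 1340.3, 1415 and 1942 CPM in the treated libraries. This was a 2.22-fold difference without overlap (log2 fold change 1.15 ± 0.18 (SE), adjusted p = 0.00229). Ctsl was at 14.1, 23.4, 28.9 and 35.3 CPM in untreated and 37.3, 45.5, 53.9 and 82.5 CPM in treated libraries, with the highest value in S30 (log2 fold change 1.09 ± 0.32 (SE), adjusted p = 0.041).

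The calls of Ctsb, Ctsd and Ctsz held when any of the 8 libraries was left out. That of Ctsl was lost without S02, S14, S18, S22, S26 or S30, with adjusted p between 0.0524 and 0.0923 in edgeR and a log2 fold change between 0.86 and 1.21 in these 6 fits, and also without the filter on low counts (log2 fold change 1.12, adjusted p = 0.0947). Ctsa, Ctsc, Ctsh and Ctss did not pass the test, with log2 fold changes of -0.09, 0.36, -0.33 and 0.11. The library S30, with its B cell markers, was the lowest of its group for Ctsa at 244 CPM, Ctsc at 456 CPM and Ctss at 1066 CPM, and also for Ctsh and Ctsz. Without S30 again 4 members were called, with Ctsc (log2 fold change 0.56, adjusted p = 0.0492 in edgeR) in place of Ctsl. Neutrophil marker sums were 3465 to 8451 CPM in untreated and 937 to 5322 CPM in treated spleen M-MDSC, macrophage sums 308 to 395 and 305 to 618 CPM with Vsig4 at 0 in all 8 libraries. Endothelial marker sums were higher in treated libraries without overlap, at 110.1 to 268 against 19.6 to 28.5 CPM, erythroid sums were lower without overlap at 0.606 to 2.69 against 23.6 to 47.6 CPM, and fibroblast sums were 2.36 to 4.37 and 4.54 to 8.18 CPM. The part of these in the result was not tested.

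RefSeq promoters (GRCm38.p6, 250 bases before to 50 after the start) were found for 7 of the 10 members, among them 3 of the 4 that rose together in spleen M-MDSC, and these 3, of Ctsd, Ctsl and Ctsz, are shown because the genes moved together. The Ctsl window lies wholly inside the annotated gene, which on the minus strand begins at chr13:64370890. Capitals mark CACGTG, the core of the E-box palindrome bound by the MiT/TFE factors (Tfeb and its relatives) at lysosomal genes.
Ctsd, chr7:142387778-142388077, minus strand: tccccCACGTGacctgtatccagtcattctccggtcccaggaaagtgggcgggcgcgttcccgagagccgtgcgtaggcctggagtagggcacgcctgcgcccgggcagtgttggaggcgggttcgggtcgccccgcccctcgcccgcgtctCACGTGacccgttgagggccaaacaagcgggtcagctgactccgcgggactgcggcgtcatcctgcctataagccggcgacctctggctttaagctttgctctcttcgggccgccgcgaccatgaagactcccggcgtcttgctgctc
Ctsl, chr13:64370471-64370770, minus strand: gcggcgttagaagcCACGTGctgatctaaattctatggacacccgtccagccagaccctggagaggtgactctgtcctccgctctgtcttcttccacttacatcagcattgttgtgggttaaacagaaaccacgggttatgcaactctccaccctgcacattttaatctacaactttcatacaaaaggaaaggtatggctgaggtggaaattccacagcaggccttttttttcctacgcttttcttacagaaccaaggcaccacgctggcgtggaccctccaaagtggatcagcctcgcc
Ctsz, chr2:174438990-174439289, minus strand: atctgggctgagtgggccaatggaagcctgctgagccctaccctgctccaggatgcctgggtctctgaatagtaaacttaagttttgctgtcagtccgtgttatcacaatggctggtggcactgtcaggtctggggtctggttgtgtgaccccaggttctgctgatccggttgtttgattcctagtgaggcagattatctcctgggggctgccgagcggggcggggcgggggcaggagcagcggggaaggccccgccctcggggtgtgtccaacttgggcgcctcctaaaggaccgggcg
On either strand, CACGTG occurred in 7.15% of all 32817 promoter windows of this length and in 3 of the 8 windows of the 7 members, 1 of the 2 windows of Ctsa and those of Ctsd and Ctsl. Like the Ctsl window, this Ctsa window, from chr2:164833523, lies inside its annotated gene, which begins at 164832873. The longer palindrome TCACGTGA, which contains it, occurred in 0.975% of all windows and in the same windows of Ctsa and Ctsd. GAGGAAGT, a site of ETS factors such as PU.1, was found in 3.20% of windows and in those of Ctsc and Ctss, GAAANNGAA (part of the interferon-stimulated response element) in 8.55% of windows and in that of Ctss, and TTCNNNGAA (GAS) in 8.29% of windows and in that of Ctsc. TGACTCA (AP-1) was in 5.20% of windows and in none of the 8. The Ctsz window holds none of these letters.

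In tumor M-MDSC, 2 of the 8 cathepsins tested were called higher after treatment, Ctsb and Ctsz, and none lower, where 1.82% of the 8360 genes tested were called higher. The median log2 fold change was 0.67 over the 8 and -0.00037 over all genes. Ctsb lay at 926, 1012, 1024 and 1194 CPM in untreated and 1945, 2715 and 3296 CPM in treated libraries. All treated values were above all untreated ones (log2 fold change 1.34 ± 0.24 (SE), adjusted p = 0.0255). Ctsz was at 383, 453, 465 and 482 CPM and 758, 761 and 838 CPM, also without overlap (log2 fold change 0.81 ± 0.18 (SE), adjusted p = 0.0489). Ctsd, at 169, 251, 336 and 351 CPM and 495, 725 and 849 CPM, did not overlap either and did not pass the test (log2 fold change 1.30 ± 0.29 (SE), adjusted p = 0.0513).

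Both calls rested on each of 5 libraries. Without S04, S08, S20, S24 or S32, Ctsb had an adjusted p between 0.0679 and 0.100 and Ctsz between 0.0831 and 0.143 in edgeR, and no cathepsin was called. Without S16, 4 were called, Ctsb, Ctsd, Ctsl and Ctsz. The treated library S28 had the highest macrophage marker sum of its group, 8371 CPM against 1877 in S16 and 3956 in S32, and also the highest Ctsb, Ctsc, Ctsd, Ctsh and Ctss. Without S28, Ctsb and Ctsz were still called. The untreated libraries had macrophage sums of 1681 to 2278 CPM. Without overlap, treated libraries had lower monocyte sums (2641 to 3348 against 3868 to 4326 CPM), higher dendritic cell sums (146 to 581 against 99.6 to 129 CPM) and higher endothelial sums (70.0 to 143 against 20.4 to 41.3 CPM), and the part of these markers in the result was not tested.

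In tumor PMN-MDSC, 1 of the 9 cathepsins tested was called, Ctsd, which rose, where 2.29% of the 8308 genes tested were called higher. The median log2 fold change was 0.42 over the 9 and 0.0064 over all genes. Ctsd lay at 361, 428, 462 and 466 CPM in untreated and 838, 844, 849.7 and 894 CPM in treated tumor PMN-MDSC. The groups were far apart relative to their spread, with a 1.96-fold higher treated level (log2 fold change 0.97 ± 0.16 (SE), adjusted p = 0.00864), and the call held without any of the 8 libraries. It was lost in the fit over all 9 groups (adjusted p = 0.0596 in edgeR) and under a stricter threshold (adjusted p under 0.001 and at least 2-fold). More members were called with DESeq2 and without the filter on low counts. Ctsb and Ctsz were also higher in every treated library than in any untreated one, at 2045 to 3044 against 1242 to 1533 CPM and 490.1 to 769.7 against 329 to 423 CPM. They did not pass the test (log2 fold changes 0.78 ± 0.22 (SE), adjusted p = 0.0832 for Ctsb and 0.66 ± 0.20 (SE), adjusted p = 0.115 for Ctsz). Neutrophil marker sums were 1034 to 4524 CPM in untreated and 3715 to 11711 CPM in treated libraries, and macrophage sums 3403 to 4176 and 3391 to 5634 CPM. Without overlap, treated libraries had lower dendritic cell sums (111 to 324 against 334 to 381 CPM), lower B cell sums (17.6 to 43.5 against 48.1 to 97.4 CPM) and higher megakaryocyte and platelet sums (70.8 to 135 against 40.4 to 70.3 CPM). The part of these markers in the Ctsd difference was not tested.

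In spleen PMN-MDSC, 1 of the 9 cathepsins tested was called, Ctsa, which fell, where 5.52% of the 7261 genes tested were called lower. The median log2 fold change was 0.29 over the 9 and 0.014 over all genes. Ctsa lay at 183, 208, 241 and 340.0 CPM in untreated and 67, 107 and 150.0 CPM in treated libraries. The groups did not overlap (log2 fold change -1.11 ± 0.30 (SE), adjusted p = 0.0495). The call was lost without S01, S05, S09, S17, S21 or S25, with adjusted p between 0.0573 and 0.121 in edgeR. More members were called with DESeq2, without the filter on low counts and in the fit over all 9 groups. Ctsc was likewise lower in every treated library, at 43.2, 44.3 and 63.1 against 73.6, 74.3, 112 and 229 CPM, and did not pass the test (log2 fold change -1.26 ± 0.46 (SE), adjusted p = 0.116). Its highest untreated value came from S01, which also had the highest macrophage marker sum of that group, 2152 CPM. Ctsd was at 294, 299, 474 and 717 CPM in untreated and 503, 1105 and 1146 CPM in treated libraries, with S09 inside the untreated range (log2 fold change 1.10 ± 0.36 (SE), adjusted p = 0.0864), and it was called without S05 or S09. Macrophage sums were 1240.2 to 2152 CPM in untreated and 582 to 1057 CPM in treated libraries, dendritic cell sums 306 to 455 and 12.1 to 97 CPM, neutrophil sums 24634 to 48823 and 50249 to 98647 CPM, endothelial sums 29.8 to 73.8 and 13 to 24.3 CPM, erythroid sums 69.6 to 187 and 0.505 to 9.57 CPM, and acinar cell sums 1.21 to 4.31 and 0 to 1.01 CPM, without overlap in each case. The part of these shifts in the Ctsa and Ctsc differences was not tested.

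**Figure D4:**
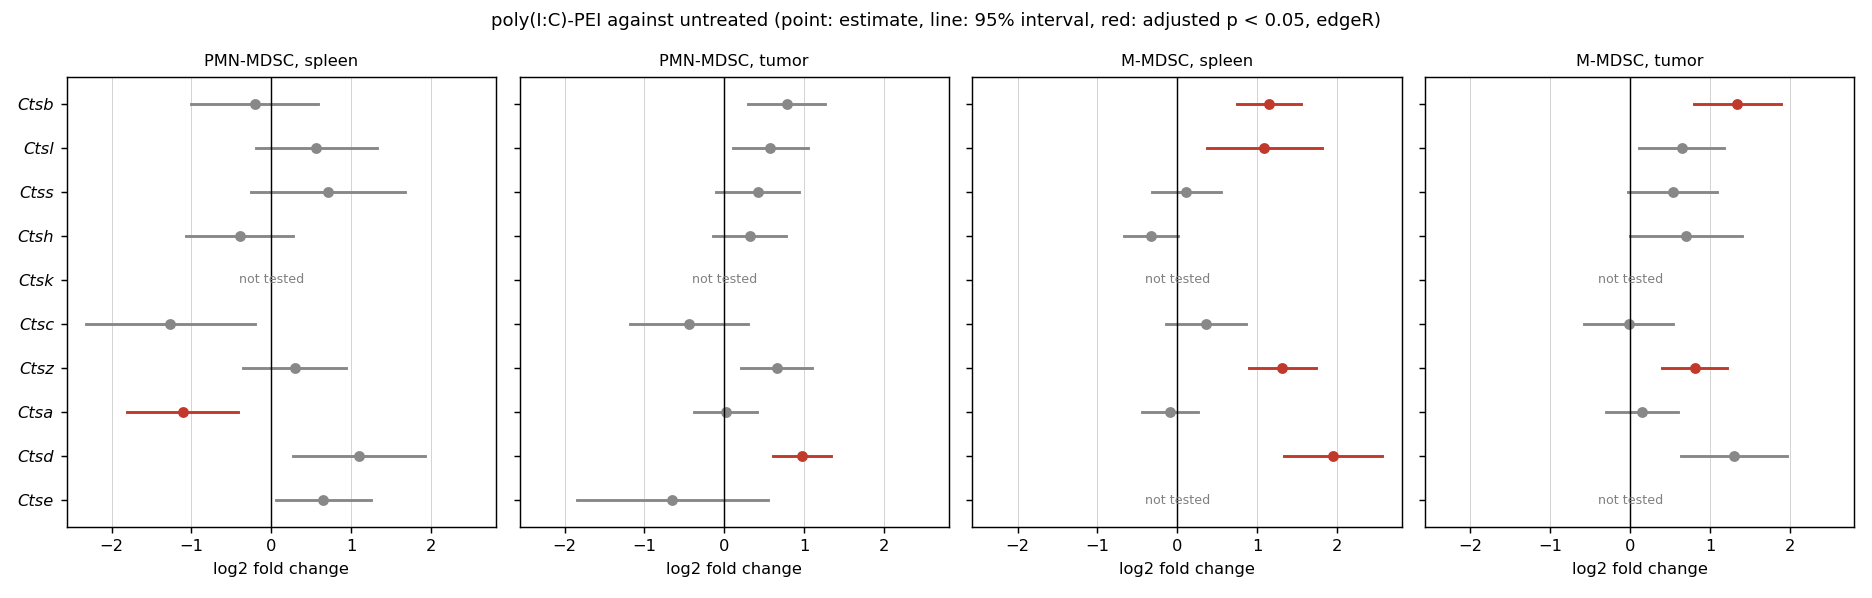
Log2 fold change of each cathepsin after poly(I:C)-PEI in the 4 MDSC fractions, on a shared axis, with 95% intervals as lines and calls at an adjusted p under 0.05 in red. Ctsd, Ctsb and Ctsz have positive estimates in the tumor fractions and in spleen M-MDSC, and Ctsa is the call on the negative side, in spleen PMN-MDSC.

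Whether treatment changed a cathepsin differently in tumor and spleen, or in M-MDSC and PMN-MDSC, was tested with interaction terms in edgeR, and 0 members were called in any of the 4. The background of calls in either direction was 3.50% for tumor against spleen in PMN-MDSC, 0.790% for tumor against spleen in M-MDSC, 10.9% for M-MDSC against PMN-MDSC in spleen and 0.0239% for M-MDSC against PMN-MDSC in tumor. Members with an unadjusted p under 0.05 numbered 2, 1, 5 and 0, and DESeq2 called 1, 0, 4 and 0. The smallest adjusted p belonged to Ctsb in spleen, with a treatment effect 1.28 ± 0.40 (SE) log2 units higher in M-MDSC than in PMN-MDSC (adjusted p = 0.0527, 95% interval 0.43 to 2.13). For Ctsd in spleen the same difference was 0.76 (adjusted p = 0.327, 95% interval -0.26 to 1.78), so the treatment effect on Ctsd was not shown to differ between these fractions. For Ctsc it was 1.55 (adjusted p = 0.0687, 95% interval 0.44 to 2.66), an interval that is not adjusted for the number of genes.

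Compared with spleen, tumor PMN-MDSC had higher levels of each of the 6 cysteine cathepsins tested. In untreated PMN-MDSC 7 of the 9 cathepsins tested were higher in tumor and none lower, where 29.4% of the 7971 genes tested were called higher, and the median log2 fold change over the 9 was 1.55 against 0.0098 over all genes. Ctsl lay at 11.7, 19.1, 23.9 and 24.4 CPM in spleen and 188, 223, 246 and 247 CPM in tumor. The lowest tumor value was far above the highest spleen value, and the level was 12.8-fold higher (log2 fold change 3.68 ± 0.24 (SE), adjusted p = 2.91e-06). Ctsc rose from 73.6, 74.3, 112 and 229 CPM to 756, 919.7, 1029 and 1221 CPM, 8.88-fold (log2 fold change 3.15 ± 0.39 (SE), adjusted p = 8.92e-05). For Ctss the values were 226, 281, 427 and 529 CPM in spleen and 1643, 1800.1, 1989.8 and 2057 CPM in tumor, without overlap (log2 fold change 2.51 ± 0.29 (SE), adjusted p = 5.27e-05). Ctsb, Ctsz and the aminopeptidase Ctsh followed with log2 fold changes of 1.63, 1.55 and 1.49, and Ctsa with 0.71, the last with overlapping groups. Ctsd at 294 to 717 CPM in spleen and 361 to 466 CPM in tumor did not pass the test (log2 fold change 0.12 ± 0.27 (SE), adjusted p = 0.716, 95% interval -0.47 to 0.71).

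Treated PMN-MDSC had the same 7 genes higher in tumor, and Ctse lower, where 28.2% of 8031 genes tested were called higher and 25.4% lower. The comparison shares no library with the untreated one. Ctsc was at 43.2, 44.3 and 63.1 CPM in spleen and 334, 581, 1004 and 1011 CPM in tumor (log2 fold change 4.00 ± 0.48 (SE), adjusted p = 0.00034), and its lowest tumor library was S31. Ctsl was at 23.7, 24.3 and 36.4 CPM and 224, 332, 380.0 and 438 CPM (log2 fold change 3.72 ± 0.31 (SE), adjusted p = 0.000131). Ctse, an aspartic protease of endosomes, was at 39.9, 44.3 and 58.6 CPM in spleen and 7.21, 12.4, 13.1 and 18.1 CPM in tumor, without overlap (log2 fold change -1.81 ± 0.31 (SE), adjusted p = 0.00168). In untreated PMN-MDSC, tumor Ctse was 6.7, 7.03, 31.6 and 32.9 CPM, and the high pair S07 and S03 also had the highest epithelial marker sums of the group. All calls of both PMN-MDSC comparisons held without any 1 library. Beside these differences, neutrophil and B cell sums were lower and macrophage, epithelial, and megakaryocyte and platelet sums higher in tumor than in spleen, without overlap, in both treatment arms. In untreated PMN-MDSC, B cell sums were 154 to 299.7 CPM in spleen and 48.1 to 97.4 CPM in tumor, epithelial sums 0 to 2.16 and 87.4 to 597 CPM, and megakaryocyte and platelet sums 5.63 to 10.1 and 40.4 to 70.3 CPM. Monocyte sums (672 to 1285 and 1867 to 2413 CPM) and erythroid sums (69.6 to 187 and 0 to 16.6 CPM) did not overlap there either, nor did acinar cell (1.21 to 4.31 and 14.8 to 101 CPM), fibroblast (2.82 to 9.8 and 27.7 to 47.1 CPM) and T cell sums (8.65 to 15.1 and 1.44 to 5.54 CPM). In treated PMN-MDSC, acinar cell (0 to 1.01 and 21.6 to 35.6 CPM), dendritic cell (12.1 to 97 and 111 to 324 CPM) and endothelial sums (13 to 24.3 and 52.7 to 92.5 CPM) were higher in tumor without overlap. The part of these markers in the result was not tested. Fewer cells of a type and less RNA per cell cannot be told apart in libraries of sorted bulk RNA.

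In untreated M-MDSC, 6 of the 8 cathepsins tested were higher in tumor than in spleen and none lower, where 15.7% of the 8298 genes tested were called higher. Ctsl was at 14.1, 23.4, 28.9 and 35.3 CPM in spleen and 171, 196, 216 and 229.5 CPM in tumor, 8.19-fold higher (log2 fold change 3.03 ± 0.24 (SE), adjusted p = 2.61e-06). Ctsd was at 56.9, 62.1, 72.8 and 94.3 CPM and 169, 251, 336 and 351 CPM (log2 fold change 1.97 ± 0.23 (SE), adjusted p = 6.8e-05). In both genes the groups were apart. Ctsc, Ctsb, Ctsz and Ctss gave smaller log2 fold changes of 1.13, 0.74, 0.66 and 0.61. The call of Ctss was lost in the fit over all 9 groups (log2 fold change 0.60, adjusted p = 0.128 in edgeR). Ctsa (0.07, 95% interval -0.20 to 0.33) and Ctsh (0.11, 95% interval -0.30 to 0.51) did not pass the test. Macrophage sums were 308 to 395 CPM in spleen and 1681 to 2278 CPM in tumor, neutrophil sums 3465 to 8451 and 250.2 to 744 CPM, B cell sums 90.7 to 185 and 39.6 to 78.6 CPM, epithelial sums 0.437 to 6.77 and 13.6 to 228 CPM, and megakaryocyte and platelet sums 0.377 to 2.03 and 8.94 to 22.3 CPM, without overlap in each case. Acinar cell (0 to 0.339 and 7.07 to 18.1 CPM) and erythroid sums (23.6 to 47.6 and 0 to 18.4 CPM) did not overlap either. Their part in the result was not tested.

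In treated M-MDSC, 1 of the 8 cathepsins tested was called, Ctsl, where 5.20% of the 9026 genes tested were called higher. It was at 37.3, 45.5, 53.9 and 82.5 CPM in spleen and 225, 319 and 416 CPM in tumor (log2 fold change 2.55 ± 0.32 (SE), adjusted p = 0.00451). The groups were apart although S30, the highest spleen library, stood above its neighbours. Ctsb, Ctsd, Ctsh and Ctss were also higher in every tumor library than in any spleen library, with log2 fold changes of 0.90, 1.29, 1.10 and 1.0 and adjusted p of 0.106, 0.0624, 0.0625 and 0.0904 in edgeR. DESeq2 called these 4 as well. Without S16, Ctsh was called too. Macrophage sums were 305 to 618 CPM in spleen and 1877 to 8371 CPM in tumor, epithelial sums 1.06 to 11.5 and 60.6 to 86.6 CPM, and B cell sums 116 to 11775 and 16.7 to 46.2 CPM, without overlap in each case. Megakaryocyte and platelet (1.21 to 5.3 and 18.2 to 65.3 CPM), fibroblast (4.54 to 8.18 and 14 to 79 CPM) and acinar cell sums (0 to 0.797 and 7.91 to 17.4 CPM) were higher in tumor in the same way, and erythroid markers, at 0.606 to 2.69 CPM in spleen, were at 0 in tumor. Neutrophil sums overlapped, at 937 to 5322 and 185 to 992 CPM. The part of these in the result was not tested.

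**Figure D5:**
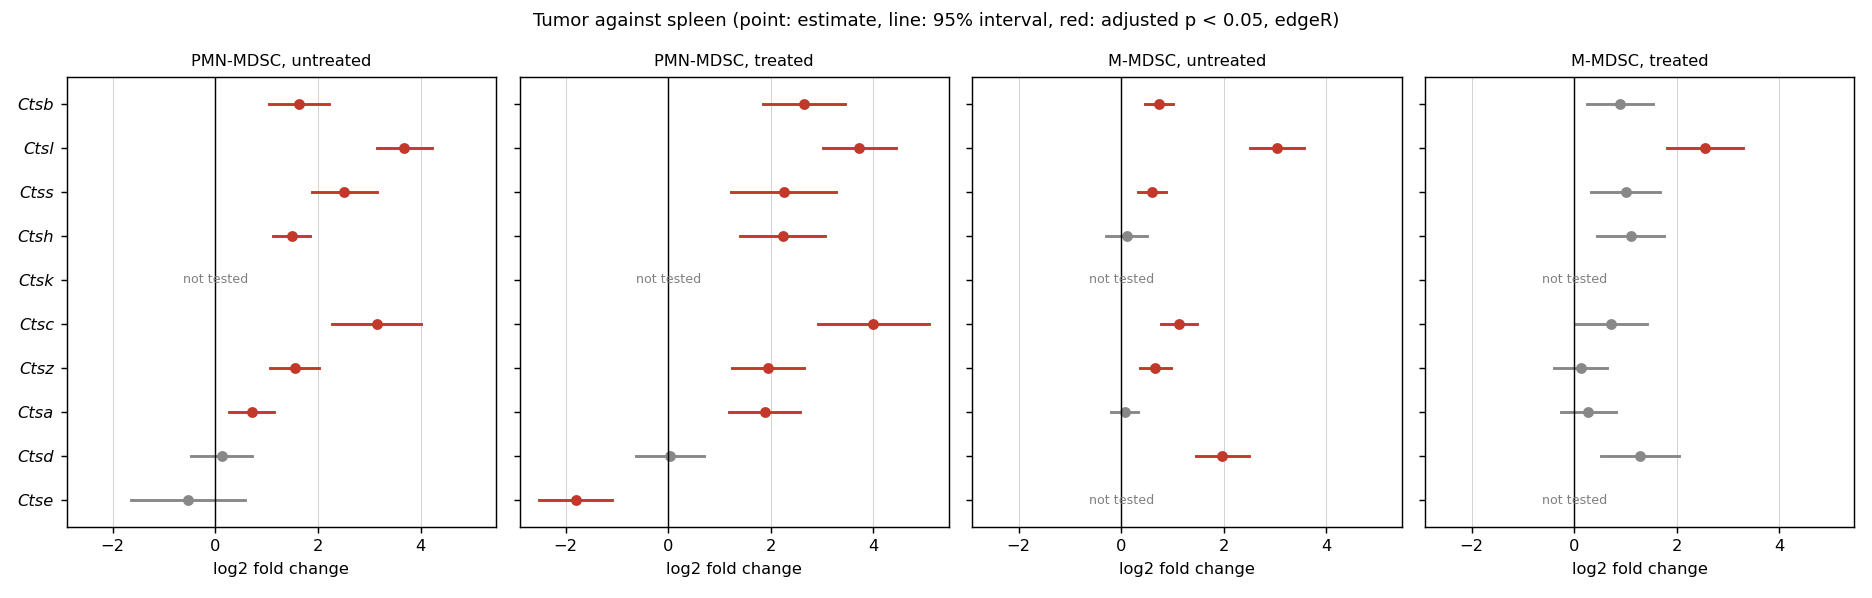
Log2 fold change of each cathepsin between tumor and spleen in the 4 combinations of MDSC type and treatment, on a shared axis, with 95% intervals as lines and calls in red. Ctsl is called in each of the 4, and Ctsc and Ctss have larger estimates in PMN-MDSC than in M-MDSC, a difference that was not tested.

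M-MDSC and PMN-MDSC differed in spleen. Ctse passed the filter there through PMN-MDSC alone, so it is described by its levels and left out of the counts. In untreated spleen 5 of the other 8 cathepsins tested were higher in M-MDSC and 1 lower, where 33.4% of the 8579 genes tested were called higher and 30.9% lower. Ctss was at 1409, 1485, 1515 and 1626 CPM in M-MDSC and 226, 281, 427 and 529 CPM in PMN-MDSC (log2 fold change 2.24 ± 0.26 (SE), adjusted p = 6.91e-05). Ctsc, Ctsh, Ctsz and Ctsa were higher by log2 fold changes of 2.34, 1.4, 1.12 and 0.79. Ctsd was the call in the other direction, at 56.9, 62.1, 72.8 and 94.3 CPM in M-MDSC and 294, 299, 474 and 717 CPM in PMN-MDSC (log2 fold change -2.41 ± 0.27 (SE), adjusted p = 6.4e-05). Ctse was at 5.42, 5.89, 6.59 and 6.99 CPM in M-MDSC and 19, 32.9, 37 and 37.4 CPM in PMN-MDSC. In treated spleen these 8 members were called, 7 higher in M-MDSC and Ctsd lower, where 32.4% of the 8153 genes tested were called higher and 28.8% lower. The largest difference was that of Ctsc, with 456, 678, 854 and 931 CPM in M-MDSC and 43.2, 44.3 and 63.1 CPM in PMN-MDSC (log2 fold change 4.01 ± 0.33 (SE), adjusted p = 8.48e-05). Treated Ctse lay at 2.13 to 8.33 CPM in M-MDSC and 39.9 to 58.6 CPM in PMN-MDSC. Without overlap, M-MDSC had lower neutrophil sums than PMN-MDSC in untreated (3465 to 8451 against 24634 to 48823 CPM) and treated spleen (937 to 5322 against 50249 to 98647 CPM), and lower macrophage (308 to 395 against 1240.2 to 2152 CPM) and dendritic cell sums in untreated spleen (40.1 to 138 against 306 to 455 CPM). Erythroid (23.6 to 47.6 against 69.6 to 187 CPM), endothelial (19.6 to 28.5 against 29.8 to 73.8 CPM), megakaryocyte and platelet (0.377 to 2.03 against 5.63 to 10.1 CPM) and acinar cell sums (0 to 0.339 against 1.21 to 4.31 CPM) were also lower in M-MDSC of untreated spleen. In treated spleen, dendritic cell (101 to 151 against 12.1 to 97 CPM) and endothelial sums (110.1 to 268 against 13 to 24.3 CPM) were higher in M-MDSC. Monocyte sums were higher in M-MDSC of untreated (3155 to 4139 against 672 to 1285 CPM) and treated spleen (2304 to 3843 against 1031 to 1951 CPM). Their part in the result was not tested. The 8 calls held without S30, and that of Ctsl was lost without S25 (log2 fold change 0.95, adjusted p = 0.0674 in edgeR).

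In tumor, few cathepsins passed the test between the MDSC types. In the untreated tumor 1 of 9 cathepsins tested was called, Ctsb, lower in M-MDSC, where 7.25% of the 7623 genes tested were called lower. Ctsb lay at 926, 1012, 1024 and 1194 CPM in M-MDSC and 1242, 1464, 1499 and 1533 CPM in PMN-MDSC (log2 fold change -0.49 ± 0.15 (SE), adjusted p = 0.0478). The groups did not overlap, but the call was lost without S03, S04, S08, S19, S20, S23 or S24, with adjusted p between 0.0533 and 0.122 in edgeR and a log2 fold change between -0.56 and -0.44. It was also lost without the filter on low counts (adjusted p = 0.148) and in the fit over all 9 groups (adjusted p = 0.213, edgeR). Ctsd, at 169 to 351 CPM in M-MDSC and 361 to 466 CPM in PMN-MDSC, did not pass the test (log2 fold change -0.65 ± 0.21 (SE), adjusted p = 0.0586) and was called without S04. Without overlap, M-MDSC had lower sums of macrophage (1681 to 2278 against 3403 to 4176 CPM), dendritic cell (99.6 to 129 against 334 to 381 CPM), neutrophil (250.2 to 744 against 1034 to 4524 CPM), endothelial (20.4 to 41.3 against 46.4 to 68.1 CPM) and megakaryocyte and platelet markers (8.94 to 22.3 against 40.4 to 70.3 CPM), and higher monocyte sums (3868 to 4326 against 1867 to 2413 CPM). Their part in the result was not tested. For Ctss the difference was 0.27 (95% interval -0.07 to 0.60). In the treated tumor 0 of the 8 members tested were called, where 0.00% of the 8955 genes tested were called higher and 0.369% lower in M-MDSC. No member had an unadjusted p under 0.05, and DESeq2 called 0. The estimates lay between -0.33 for Ctsd and 0.68 for Ctsc, and the interval of Ctsc was wide (95% interval -0.24 to 1.61).

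Bulk tumor held much less cathepsin mRNA than the MDSC sorted from tumor, apart from Ctse. Against untreated tumor PMN-MDSC all 8 members other than Ctse and Ctsk were lower in bulk tumor and Ctse was higher, where 32.8% of the 11138 genes tested were called lower and 36.9% higher. Against untreated tumor M-MDSC all 8 members tested other than Ctse were lower, where 31% of the 11022 genes tested were called lower and 38.2% higher. The comparisons share the bulk libraries. Ctss was at 116, 170.2, 173 and 181 CPM in bulk tumor, 1643, 1800.1, 1989.8 and 2057 CPM in PMN-MDSC and 2027, 2336, 2355 and 2454 CPM in M-MDSC. This was 13.4-fold and 15.6-fold lower (log2 fold changes -3.74 ± 0.21 (SE), adjusted p = 3.96e-08 and -3.97 ± 0.22 (SE), adjusted p = 5.62e-08). Ctsl showed the smallest difference among the lower genes in both, from 188, 223, 246 and 247 CPM in PMN-MDSC to 70.7, 90.7, 106 and 110.2 CPM in bulk (log2 fold change -1.46 ± 0.18 (SE), adjusted p = 1.82e-05) and -1.23 against M-MDSC. Ctsk had a mean under 25 counts in PMN-MDSC and passed the filter through bulk tumor alone, so it is left out of the count. It overlapped between bulk (3.36 to 4.41 CPM) and PMN-MDSC (1.11 to 19.9 CPM). Its call (log2 fold change -1.70 ± 0.63 (SE), adjusted p = 0.0307) was lost without S03, S41, S42 or S45, with adjusted p between 0.0638 and 0.0967 in edgeR.

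Ctse was the exception, at 136, 174, 177 and 193 CPM in bulk tumor, 6.7, 7.03, 31.6 and 32.9 CPM in PMN-MDSC and 6.53, 7.66, 8.12 and 30.2 CPM in M-MDSC. Every bulk library was above every sorted library (log2 fold change 2.98 ± 0.48 (SE), adjusted p = 0.000323 against PMN-MDSC). In M-MDSC its mean was under 25 counts, so it passed the filter through bulk tumor alone and no test is given. Epithelial marker sums were 3592 to 5764 CPM in bulk tumor, 87.4 to 597 CPM in untreated tumor PMN-MDSC and 13.6 to 228 CPM in untreated tumor M-MDSC, and did not exceed 11.5 CPM in spleen. Fibroblast sums were 831 to 1091 CPM in bulk tumor, 27.7 to 47.1 CPM in PMN-MDSC and 1.28 to 31.5 CPM in M-MDSC, and T cell sums 8.83 to 47, 1.44 to 5.54 and 3.81 to 5.11 CPM. Monocyte sums were 71.2 to 143, 1867 to 2413 and 3868 to 4326 CPM in the same order, and macrophage sums 675 to 1044, 3403 to 4176 and 1681 to 2278 CPM. Neutrophil, dendritic cell, B cell, and megakaryocyte and platelet sums were likewise lower in bulk than in either sorted fraction without overlap, at 6.37 to 26.1, 17.8 to 37.3, 1.04 to 4.41 and 4.07 to 7.58 CPM in bulk. Endothelial sums, at 51.3 to 94.5 CPM in bulk, were above those of M-MDSC (20.4 to 41.3 CPM). The part of these in the result was not tested.

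Genes that act with cathepsins were counted from lists chosen with results of these data known. A list of 8 genes held the gene of the invariant chain, which Ctss trims, MHC class II genes and Ciita, their transcriptional coactivator. Genes of this list fell after treatment in spleen M-MDSC (7 of 8) and tumor PMN-MDSC (5 of 7). In tumor M-MDSC 0 of 7 passed the test, where 3 had an unadjusted p under 0.05. The background of genes called lower was 9.48%, 1.07% and 1.06% of all tested in these 3 fractions, and the list had median log2 fold changes of -2.60, -2.22 and -1.24 in that order. In spleen PMN-MDSC, 7 of the 8 had a mean under 25 counts in the treated libraries and passed the filter through the untreated ones, so no count is given there. The other was Cd74, the invariant chain, at 779 to 2762 CPM in untreated and 58.1 to 96.5 CPM in treated spleen PMN-MDSC (log2 fold change -4.17 ± 0.56 (SE), adjusted p = 0.00411, where 5.52% of all genes tested were called lower). H2-Ab1 was at 276 to 624 CPM in untreated and 29.1 to 74.2 CPM in treated spleen M-MDSC (log2 fold change -3.14 ± 0.34 (SE), adjusted p = 0.000372). In tumor PMN-MDSC, H2-Ab1 gave -2.22 ± 0.44 (SE), adjusted p = 0.0232. Ctss itself had a log2 fold change of 0.71 in spleen PMN-MDSC, 0.11 in spleen M-MDSC and 0.42 in tumor PMN-MDSC, and passed none of these tests. In tumor M-MDSC it was not called either. Dendritic cell marker sums were lower in treated PMN-MDSC without overlap, at 12.1 to 97 against 306 to 455 CPM in spleen and 111 to 324 against 334 to 381 CPM in tumor. Macrophage sums in spleen PMN-MDSC (582 to 1057 against 1240.2 to 2152 CPM) and B cell sums in tumor PMN-MDSC (17.6 to 43.5 against 48.1 to 97.4 CPM) were lower in the same way. In spleen M-MDSC the dendritic cell sums were 40.1 to 138 CPM in untreated and 101 to 151 CPM in treated libraries. What part these markers had in the fall was not tested.

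Cystatins and stefins, the inhibitors of cysteine cathepsins, numbered 11 in the count table, and 2 to 5 of them passed the filter in a treatment comparison. Several passed it in PMN-MDSC through the treated libraries alone, so the number that rose is not counted there. In spleen PMN-MDSC, Stfa1 was at 0.576 to 2.16 CPM in untreated and 11.3 to 51.5 CPM in treated libraries, Stfa2 at 0 to 1.91 and 33.9 to 243 CPM, BC100530 at 0 to 1.21 and 17.4 to 76.3 CPM, and Stfa2l1 at 44.1 to 132 and 135 to 447 CPM. These 4 genes are near-identical copies, so the split of reads among them is uncertain, and Stfa1, Stfa2 and BC100530 were near the floor of 3 counts in untreated libraries, so their fitted fold changes are not given. In tumor PMN-MDSC, Stfa2l1 was at 2.93 to 4.29 CPM in untreated and 16.4 to 133 CPM in treated libraries. In spleen M-MDSC Cstb, the cytosolic inhibitor cystatin B, rose from 13.4 to 16.1 CPM to 38.6 to 52.7 CPM (log2 fold change 1.5 ± 0.15 (SE), adjusted p = 0.000173), 1 of 2 tested where 9.96% of all genes tested were called higher, and in tumor M-MDSC 0 of 2 passed the test.

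Other lysosomal hydrolases gave 5 rises of 23 tested in tumor M-MDSC and 2 rises of 24 in tumor PMN-MDSC, with median log2 fold changes of 0.56 and 0.15 over the list. In spleen M-MDSC 5 rose and 2 fell of 23 tested, leaving out Gla, which passed the filter through the treated libraries. Of all genes tested, 9.96% were called higher and 9.48% lower in spleen M-MDSC, 1.82% higher in tumor M-MDSC, 2.29% higher in tumor PMN-MDSC and 5.52% lower in spleen PMN-MDSC. Acp2, the lysosomal acid phosphatase, rose in the same 3 fractions as Ctsb, Ctsd or Ctsz did, with 37.3 to 78.3 CPM in untreated and 226 to 385 CPM in treated spleen M-MDSC (log2 fold change 2.45 ± 0.25 (SE), adjusted p = 0.000219), 1.73 ± 0.23 (SE), adjusted p = 0.0102 in tumor M-MDSC and 1.03 ± 0.19 (SE), adjusted p = 0.0157 in tumor PMN-MDSC. In spleen PMN-MDSC Lipa, the acid lipase, fell (-0.96 ± 0.20 (SE), adjusted p = 0.0196). Gaa, Acp5 and Dnase2a passed the filter there through the untreated libraries and are given by their levels, with Gaa at 14.1 to 21.6 CPM in untreated and 1.78 to 6.06 CPM in treated libraries and Acp5 at 10.5 to 22.8 and 4.14 to 6.09 CPM. Lipa rose in tumor M-MDSC (1.55 ± 0.30 (SE), adjusted p = 0.0308), and Acp5 rose in spleen M-MDSC (1.94 ± 0.23 (SE), adjusted p = 0.000512).

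The list of sorting and processing genes also holds the neuraminidase Neu1. Of this list, Igf2r and Neu1 rose in spleen M-MDSC (2 of 9, where 9.96% of all genes tested were called higher). Lgmn, the asparaginyl endopeptidase that processes cathepsin precursors, fell in spleen PMN-MDSC (1 of 8, where 5.52% were called lower), from 39.4 to 146 CPM to 14.1 to 31.3 CPM (log2 fold change -1.96 ± 0.53 (SE), adjusted p = 0.0481). In each tumor fraction 0 of 9 were called. V-ATPase subunits, which acidify the lysosome, gave 5 rises and 1 fall of 15 tested in spleen M-MDSC, where 9.96% of all genes tested were called higher and 9.48% lower, among them Atp6v1d (0.87 ± 0.13 (SE), adjusted p = 0.00203), and 0 calls in the other 3 fractions. The list of lysosomal membrane proteins also holds Npc2, a soluble protein of the lysosome. It gave 2 rises of 12 in spleen PMN-MDSC, where 6.10% of all genes tested were called higher. These were Npc2 (1.17 ± 0.22 (SE), adjusted p = 0.0162) and Lamp2 (0.84 ± 0.21 (SE), adjusted p = 0.0355). The list gave 1 fall of 12, Ctns, in spleen M-MDSC (-0.67 ± 0.19 (SE), adjusted p = 0.037), where 9.48% were called lower. The 4 MiT/TFE genes, of which 3 passed the filter in spleen PMN-MDSC and 4 in the others, gave 0 calls after treatment in edgeR, with 2, 0, 0 and 2 at an unadjusted p under 0.05 in spleen PMN-MDSC, tumor PMN-MDSC, spleen M-MDSC and tumor M-MDSC. The 5 granule serine proteases that Ctsc activates gave 0 calls among the 4 that passed the filter in spleen M-MDSC, 3 of them at an unadjusted p under 0.05, and among the 2 in tumor M-MDSC. None of the 5 passed it in PMN-MDSC. The cathepsins Ctsf, Ctso, Ctsw and Ctsg outside the 10 gave 0 calls, with at most 1 of them above the filter in a fraction and none at an unadjusted p under 0.05.

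Likeness of profile was measured as the root mean square difference between centred profiles of mean log2(CPM + 1) over the 9 groups, among 9794 genes. Among the 3 genes nearest to Ctsb were Tmem86a (0.34) and Cstb (0.35), the latter an inhibitor of Ctsb. Among the 3 nearest to Ctsz were Tmem106a (0.21) and Ly9 (0.27), and those nearest to Ctsh were Plbd2, Tesk1 and Lamp1 (0.22 each). Ctsa was nearest to Slc36a1 (0.20), Cd302 (0.24) and Pla2g15 (0.25), Ctsc to Tfec (0.31), Hivep3 (0.37) and Dusp3 (0.38), and Ctss to Tlr1 (0.30), Cmklr1 (0.31) and Tmem106a (0.34). Ctsd was nearest to Fcgr4 (0.37), Ninj1 (0.45) and Lpcat2 (0.47), Ctse to Magi3 (0.31), Gm37524 (0.45) and Glis3 (0.48), and the low Ctsk to Fam162a (0.28), Skil (0.35) and Piga (0.39). Ctsl had the most distant neighbours, G530011O06Rik (0.46), Mt1 (0.51) and Mif (0.54). Among the members themselves Ctsb and Ctsz were the closest pair (0.37).

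In GRCm38 the cysteine endopeptidases lie with Ctsb (ENSMUSG00000021939.8) at chr14:63122462-63145923 (plus strand), Ctsl (ENSMUSG00000021477.9) at chr13:64359337-64370890 (minus strand), Ctss (ENSMUSG00000038642.10) at chr3:95526786-95556403 (plus strand) and Ctsk (ENSMUSG00000028111.4) at chr3:95499256-95509362 (plus strand). The cysteine exopeptidases lie with Ctsh (ENSMUSG00000032359.14) at chr9:90054152-90076089 (plus strand), Ctsc (ENSMUSG00000030560.17) at chr7:88278085-88310888 (plus strand) and Ctsz (ENSMUSG00000016256.10) at chr2:174427493-174439039 (minus strand). The aspartic proteases and the serine carboxypeptidase lie with Ctsd (ENSMUSG00000007891.16) at chr7:142375911-142388038 (minus strand), Ctse (ENSMUSG00000004552.16) at chr1:131638306-131675505 (plus strand) and Ctsa (ENSMUSG00000017760.15) at chr2:164832873-164841032 (plus strand). Counts cover all annotated exons of a gene. Of the exon bases of Ctsd, 34.4% are shared on the same strand with Gm49369, which had 0 counts in 32 of the 34 libraries and 1 count in each of the others, and of those of Ctsl 6.09% with Gm49230. Reads in a shared stretch may have been counted for neither gene, and how many were was not tested.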

How the data were processed

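RNA was extracted from sorted MDSC and from whole tumors, and libraries were made with a stranded total RNA kit for low input. The deposited table holds raw counts per gene: per the paper's methods and the labels, the authors mapped reads to GRCm38 with ContextMap and BWA and counted them per strand with featureCounts (Subread 1.4.6-p3). The library of 10 counts was left out, so 34 of 35 were used. The counts of the 48 same-group pairs differed beyond sampling noise, at 6.19 to 49.5 chi-square units per degree of freedom. The reads carry no molecular identifiers in these counts. Per the paper, the libraries of a group came from different mice, and no label ties a column to a mouse.

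Each comparison was fitted on its own groups with edgeR 4.0.16 (R 4.3.3, limma 3.58.1; TMM scaling, quasi-likelihood test, Benjamini-Hochberg adjustment over all genes with a mean count of at least 25, threshold 0.05). Interactions used the 4 groups involved. FPKM are CPM per kilobase of the union of exons. The scripts were tested on simulated data. Alternatives were DESeq2 1.42.0, RLE size factors, no filter, 1 fit over all 9 groups, a stricter threshold and leaving out each library. Named genes are the 10 members, up to 3 called genes of smallest adjusted p per pathway list and treatment comparison, and the 3 genes most like each member; some of these are not reported here. Members and lists were chosen with earlier results of these data known.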

Additional observations from a re-analysis of the deposited data

Results flagged for a closer look

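In 70 groups of 4 libraries, 1 for each member and group, 3 had a library farther from the others than Dixon's 95% limit allows, and chance alone gives about 1 in 20. The ratios below were taken on log2(CPM + 1), not on the CPM printed beside them. Ctse in untreated tumor M-MDSC was at 30.2 CPM in S08 against 6.53 to 8.12 CPM in the other 3 (ratio 0.865), and S08 also had the highest epithelial marker sum of the group, 228 CPM. Ctsh in the same group was at 143 CPM in S24 against 265 to 288 CPM (ratio 0.881), and S24 was the smallest library with 793070 counts. Ctss in bulk tumor was at 116 CPM in S41 against 170.2 to 181 CPM (ratio 0.855).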

How the results depend on the processing

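No paired analysis was possible because the replicate numbers, which the sample titles share across groups, are not in the column headings of the count table, whose own running numbers are in no label. No member changed direction where it was called. DESeq2 and RLE size factors kept all 66 member calls, leaving the filter out kept 64, the fit over all 9 groups 62 (Ctsk of the bulk comparison was below its filter) and the stricter threshold (adjusted p under 0.001 and at least 2-fold) 39. Over all fits that left out 1 library, calls held 471 times and were lost 34 times. These tallies include calls of genes that passed the filter through 1 group alone, and give those calls no support. Those were Ctse in M-MDSC against PMN-MDSC of untreated and of treated spleen, Ctse in bulk tumor against M-MDSC, and Ctsk in bulk tumor against PMN-MDSC.

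Counts of called members moved as follows. In treated against untreated PMN-MDSC of spleen, 1 became 3 with DESeq2, 3 without the filter, 3 in the fit over 9 groups and 0 under the stricter threshold, and 0 to 1 on leaving out a library. In PMN-MDSC of tumor, 1 became 3, 3, 0 and 0, and 1 to 2. In M-MDSC of spleen, 4 became 0 under the stricter threshold. In M-MDSC of tumor, 2 became 4 without the filter, 4 in the fit over 9 groups and 0 under the stricter threshold, and 0 to 4. For tumor against spleen, the stricter threshold gave 3 of 8 in treated PMN-MDSC and 3 of 6 in untreated M-MDSC, and in treated M-MDSC 1 became 5 with DESeq2, 5 without the filter, 5 in the fit over 9 groups and 0, and 1 to 2. For M-MDSC against PMN-MDSC, treated spleen went from 9, a number that here includes Ctse, to 3 under the stricter threshold. Untreated tumor went from 1 to 2 with DESeq2, 0 in the fit over 9 groups and 0 under the stricter threshold, and 0 to 1 on leaving out a library. Treated tumor went from 0 to 1 without the filter and 1 in the fit over 9 groups. The interactions went from 0 to 1 with DESeq2 and 1 in the fit over 9 groups (tumor against spleen, PMN-MDSC), and from 0 to 4 with DESeq2, 1 with RLE, 4 without the filter, 4 in the fit over 9 groups and 1 without S30 (M-MDSC against PMN-MDSC, spleen), and 0 to 4 on leaving out a library. The cause was not tested. Leaving out S30, or the treated tumor M-MDSC library S28, was chosen after seeing the data. The fit over 9 groups shifted the median of all genes by -0.17 in treated against untreated spleen PMN-MDSC, 0.15 in treated PMN-MDSC of tumor against spleen, -0.13 in M-MDSC against PMN-MDSC of untreated spleen, -0.15 in bulk tumor against M-MDSC and 0.23 in the spleen interaction. Ctsk was below the filter in each comparison of 2 groups but that of bulk tumor with PMN-MDSC, and Ctse in those within M-MDSC and in M-MDSC against PMN-MDSC of treated tumor, so depth limits what can be said of them. Ctse had a mean under 25 counts in each M-MDSC group, and passed elsewhere through PMN-MDSC or bulk tumor.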
